A study of Rattus norvegicus with 6 samples.

Results

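Accessible chromatin was compared between adult and 10-day-old (P10) rat islets at the genes that control how many mitochondria a cell makes and how these fuse and take up calcium. The 9 genes are *Ppargc1a*, *Ppargc1b*, *Esrra*, *Nrf1*, *Tfam*, *Mcu*, *Mfn1*, *Mfn2* and *Opa1*, and their sites are all accessible sites (ACS) whose nearest gene carries 1 of these symbols in the deposited table. This gave 61 ACS of 101603 in all, at 8 genes. No ACS carries the symbol *Mfn2*.

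The signal is the number of integrations of the Tn5 transposase, which cuts and tags DNA where nucleosomes leave it open, counted per ACS by ATAC-seq. Both groups were islet cells of Sprague-Dawley rats, with no allele or treatment named for either. Adult replicates 4, 5 and 6 came from male rats of around P90, and P10 replicates 1, 2 and 3 from mixed pups of different litters, which were of both sexes. By the study's methods, P10 pancreases were digested by hand shaking, while collagenase was injected into the pancreatic duct of adults and digestion was longer. Age, sex, the pooling of pups and the way islets were isolated therefore cannot be told apart. The libraries held between 7916919 and 11903909 integrations in ACS in adults and between 13491534 and 21168463 at P10. Levels are given as CPM, counts relative to the scaled total of a library, after TMM scaling, which sets the libraries on a scale where most ACS do not differ, and fold changes are log2 of adult over P10 with their standard error (SE). A site was called higher or lower in adults by edgeR's quasi-likelihood test at the study's limits, 0.05 for the p-value and 0.2 for its Benjamini-Hochberg adjusted value over all ACS.

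PGC-1α (*Ppargc1a*) and PGC-1β (*Ppargc1b*) are coactivators without DNA binding of their own that drive mitochondrial biogenesis by joining factors such as ERRα (*Esrra*) and NRF1 (*Nrf1*). These factors switch on nuclear genes for the respiratory chain and for TFAM (*Tfam*), which is imported into mitochondria, packs mitochondrial DNA and starts its transcription. MCU (*Mcu*) is the pore of the calcium channel of the inner membrane, mitofusins (*Mfn1* and *Mfn2*) fuse the outer membrane and OPA1 (*Opa1*) fuses the inner membrane and shapes its cristae. In β-cells, mitochondrial ATP couples glucose to insulin release.

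The promoters of 3 genes are shown because they cover the contrast at gene starts, with a start site that was higher in adults for *Ppargc1a* and *Opa1* and a start site without a called difference for *Tfam*. The sequences are the 250 bases before the RefSeq start in build GRCr8, at chr14:63634058-63634307 on the plus strand, chr11:84689901-84690150 on the minus strand and chr20:17355123-17355372 on the plus strand. Capitals mark matches to the motifs searched for. The ACS are in build Rn5, so these windows were not placed on them.
Ppargc1a: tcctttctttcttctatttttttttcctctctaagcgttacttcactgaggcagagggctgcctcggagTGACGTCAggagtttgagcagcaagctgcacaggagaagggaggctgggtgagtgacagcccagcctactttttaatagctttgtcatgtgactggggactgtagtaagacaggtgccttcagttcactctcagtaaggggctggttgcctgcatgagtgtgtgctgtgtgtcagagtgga
Opa1: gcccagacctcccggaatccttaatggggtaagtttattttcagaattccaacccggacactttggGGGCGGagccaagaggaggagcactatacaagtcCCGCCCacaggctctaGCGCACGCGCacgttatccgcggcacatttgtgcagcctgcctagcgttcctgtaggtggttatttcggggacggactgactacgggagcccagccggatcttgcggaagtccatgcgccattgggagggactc
Tfam: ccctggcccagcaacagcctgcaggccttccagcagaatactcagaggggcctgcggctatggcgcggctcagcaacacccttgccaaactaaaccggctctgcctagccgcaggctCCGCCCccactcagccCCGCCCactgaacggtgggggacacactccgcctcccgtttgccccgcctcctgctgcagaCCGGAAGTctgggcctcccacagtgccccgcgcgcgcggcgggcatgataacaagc

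Windows reaching from 250 bases before to 50 bases after the start were found for 7 of the 9 genes, without *Mcu* and *Mfn2*, and 7 motifs were searched on both strands. The window of *Ppargc1a* held the CREB motif TGACGTCA, starting 181 bases before the start, which 1.83% of all 33469 windows hold. That of *Opa1* held GCGCACGCGC, a match to the NRF1 core on the reverse strand, 134 bases before the start, and 4.25% of all windows hold such a match. The ETS motif CCGGAAGT of GABP stood 56 bases before the start of *Tfam* and 32 bases before that of *Mfn1*, against 3.81% of all windows. The SP-family box GGGCGG was in 6 of the 7 windows and in 33.1% of all windows. Neither the full NRF1 motif nor the ERR motifs TCAAGGTCA and AAGGTCA, of which the shorter lies within the longer, was found in the 7 windows, and these are in 0.852%, 0.433% and 4.61% of all windows. A match of letters is a description and not a bound site.

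Of the 61 sites, 21 were called, against 18.9% of all ACS. Of these, 17 were higher in adults (27.9% of the members' sites, against 12.3% of all ACS) and lay at 6 genes, while 4 were lower (6.56% against 6.63%) and all belonged to *Ppargc1a*. Fold changes of the 17 higher sites ran from 0.46 to 2.19 on the log2 scale. The median log2 fold change over the 61 sites was 0.07, against -0.01 over all ACS. With an adjusted p < 0.05, 11 sites passed, all higher in adults, against 8.98% of all ACS. At the other 40 sites log2 fold changes ran from -0.89 to 0.52. No site outside *Ppargc1a* was lower by this call, by DESeq2 or by limma with TMM factors, and 0 of those 37 had an unadjusted p < 0.05 in that direction in edgeR with TMM factors and all 6 libraries.

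All 3 adult libraries lay above all 3 P10 libraries at 17 sites and below them at 3, against 13.8% and 10.9% of all ACS (24.7% in either direction). The mean count per library ran from 8.83 to 791 with a median of 71.0 (64.8 over all ACS). Of the 21 sites under a mean of 50 counts 3 were called and of the other 40 sites 18, against 12.2% and 23.4% of all ACS in these ranges. Of the 21 calls, 9 remained in each of the 6 fits that left out 1 library. The number of calls was 11 without Adult replicate 4, 11 without P10 replicate 3 and 13 without P10 replicate 2. Calls over all ACS fell in the same fits, from 12504 higher and 6738 lower with all libraries. They were 9709 and 5456 without Adult replicate 4, 8908 and 4232 without P10 replicate 3, and 7973 and 3285 without P10 replicate 2.

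**Figure D1:**
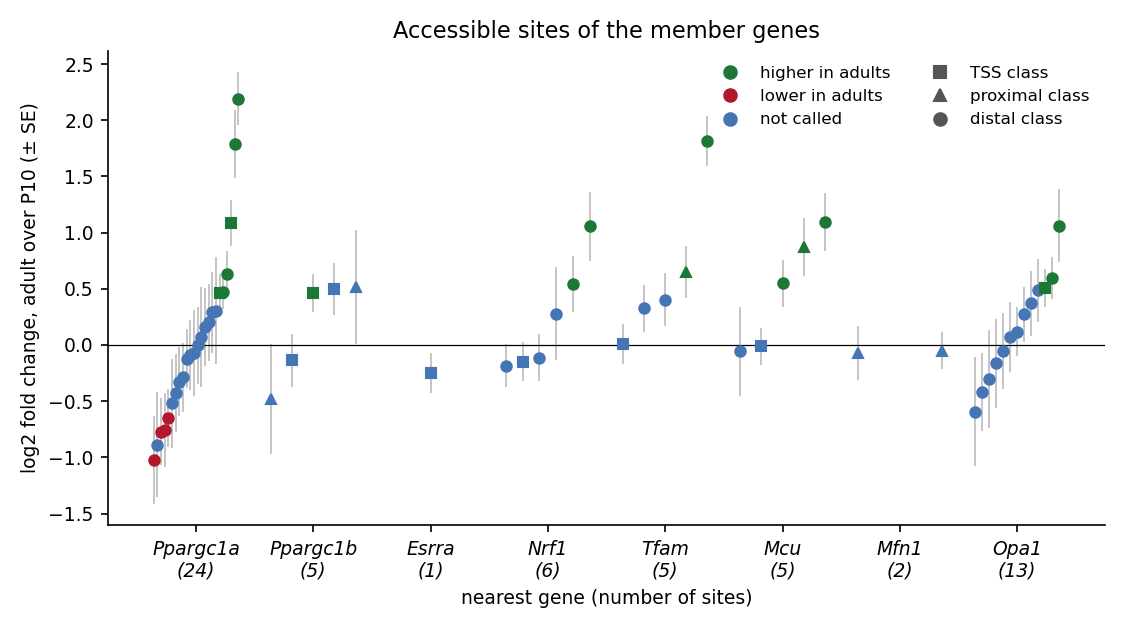
Log2 fold change (adult over P10, edgeR, bars are SE) of each of the 61 ACS, sorted within its nearest gene, with squares for sites within 1000 bp of the gene start (TSS class), triangles for 1000 to 10000 bp (proximal) and circles for farther sites (distal). The 4 red sites lower in adults all belong to Ppargc1a, and Esrra and Mfn1 show blue symbols alone.

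The scale matters for the sign. Dividing by the sums of the deposited counts, without TMM, moved the median log2 fold change of all ACS to -0.10 and that of the members' sites to -0.02, with 16 higher and 4 lower calls among the members and 10447 higher and 10732 lower among all ACS, in place of 12504 and 6738. Cyclic loess gave 15 and 5 among the members and 11068 and 9101 among all ACS. Dividing by the total reads of each library given by the study moved the median of all ACS to -0.84 and left 3 of the members' sites higher and 31 lower, so directions below hold relative to the bulk of ACS. The test of each site against the sum over its gene, given below as the within-gene difference, depends little on it. By that test 17 of 60 members' sites were called (6 higher and 11 lower than their gene, where 14.6% of all ACS so tested were called), and 16 with column sums.

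*Ppargc1a*, the best known regulator of mitochondrial biogenesis, had 24 ACS at chr14 around the gene (63195104 to 63286096, plus strand, Rn5), 2 of the TSS class and 22 distal, of which 6 were higher and 4 lower in adults. The largest change among all 61 sites lay at chr14:63682126-63682488, outside any listed gene and 487 kb downstream of the start. There, 216, 170 and 128 integrations were counted in Adult replicates 4, 5 and 6 and 73, 54 and 81 in P10 replicates 1, 2 and 3, although the P10 libraries were deeper. As CPM these were 19.5, 16.6 and 16.5 in adults and 3.39, 3.85 and 4.28 at P10. Every adult library thus lay above every P10 library, at a log2 fold change of 2.19 (SE 0.24, adjusted p = 7.95e-07), or 4.56-fold. The within-gene difference was 1.79 (SE 0.26), so the site rose beyond the gene's sites as a whole.

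This ACS is the first of 3 within 2341 bp. The middle ACS, 701 bp farther, was higher with a log2 fold change of 0.63 (SE 0.20, adjusted p = 0.047), from 12.3, 16.7 and 20.5 CPM at P10 to 26.5, 26.2 and 23.8 CPM in adults. The last, 394 bp beyond it, had a log2 fold change of -0.33 (SE 0.31, adjusted p = 0.61). Neighbours in this short stretch thus gave different values, and the last was lower than the gene as a whole by -0.73 on the log2 scale within the gene. In the deposited annotation the nearest other named genes are *Gba3*, 798489 bp from the first site, and *Gnpda2*, 933112 bp on the other side, while the end of *Ppargc1a* is 396030 bp away.

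Another strong change was 184 kb upstream of *Ppargc1a* (chr14:63010863-63011209), with 5.87, 12.7 and 10.3 CPM in Adult replicates 4, 5 and 6 and 2.28, 2.50 and 3.54 CPM at P10. The groups did not overlap and the log2 fold change was 1.79 (SE 0.30, adjusted p = 0.000242), with a within-gene difference of 1.38 (SE 0.29). Nearer the gene, 13 kb upstream, the ACS with the most counts of all members (mean 791 per library) held 75.2, 61.0 and 72.8 CPM in adults and 50.5, 51.9 and 48.1 CPM at P10, a log2 fold change of 0.47 (SE 0.15, adjusted p = 0.049). A small ACS separated from it by 24 bp, with a mean of 37.8 counts per library, stood at -0.00 (SE 0.34). Neither the small ACS (within-gene difference -0.41, SE 0.35) nor its larger neighbour (0.07, SE 0.19) passed the limits of that test. The difference between these neighbours was not tested.

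At the start of *Ppargc1a*, the ACS overlapping the first base of the gene (chr14:63194818-63195245) counted 239, 235 and 233 integrations in adults and 283, 145 and 215 at P10, which is 21.6, 22.9 and 30.0 CPM against 13.2, 10.3 and 11.4 CPM. It was 2.13-fold higher in adults without overlap (log2 1.09, SE 0.20, adjusted p = 0.000727). A wider ACS inside the gene, from 635 bp after the start, held 63.1, 46.6 and 64.8 CPM in adults and 43.6, 37.0 and 45.9 CPM at P10 and was also called (log2 0.46, SE 0.17, adjusted p = 0.084). The call was lost without Adult replicate 4 (the log2 fold change over the 6 fits ran from 0.36 to 0.60), Adult replicate 6 or P10 replicate 2. The within-gene difference of the start site, 0.68 (SE 0.22), passed the limits.

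With TMM factors, the sites called lower in adults all lay around *Ppargc1a*, while cyclic loess added the start site of *Esrra* and total reads 18 sites at other genes. They lay 111 kb upstream (log2 -0.65, SE 0.26) and 154 kb (-0.76, SE 0.33), 159 kb (-0.77, SE 0.29) and 673 kb downstream (-1.02, SE 0.39) of the start, with adjusted p of 0.13, 0.17, 0.11 and 0.11. At the pair near 154 and 159 kb the adult libraries lay below all P10 libraries, with 2.44, 1.85 and 3.09 CPM against 3.35, 3.99 and 5.02 CPM at the first and 4.16, 2.73 and 3.35 CPM against 5.02, 5.35 and 7.14 CPM at the other. At the outer sites the groups overlapped. Mean counts were between 47.3 and 167 per library, and each of the 4 calls was lost when 1 of 3 or 4 libraries was left out. Adult replicate 5 and P10 replicate 3 were among them for all 4 sites. The counts of lower calls were 1 without Adult replicate 5, 1 without Adult replicate 4 and 0 without P10 replicate 3. The call without Adult replicate 5 was at another *Ppargc1a* ACS, 660 kb downstream, that was not called with all libraries. Within the gene the 4 sites were lower than the gene's sum, with differences of -1.06, -1.16, -1.17 and -1.43. In total, 3 of the *Ppargc1a* sites were called higher and 9 lower than the gene's sum, where 7.13% and 7.49% of all ACS so tested were. Of these 9, only the 4 above were also called lower in adults. The gene's sum was itself higher in adults (log2 0.40, SE 0.13), so a site with little change can stand lower than it.

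**Figure D2:**
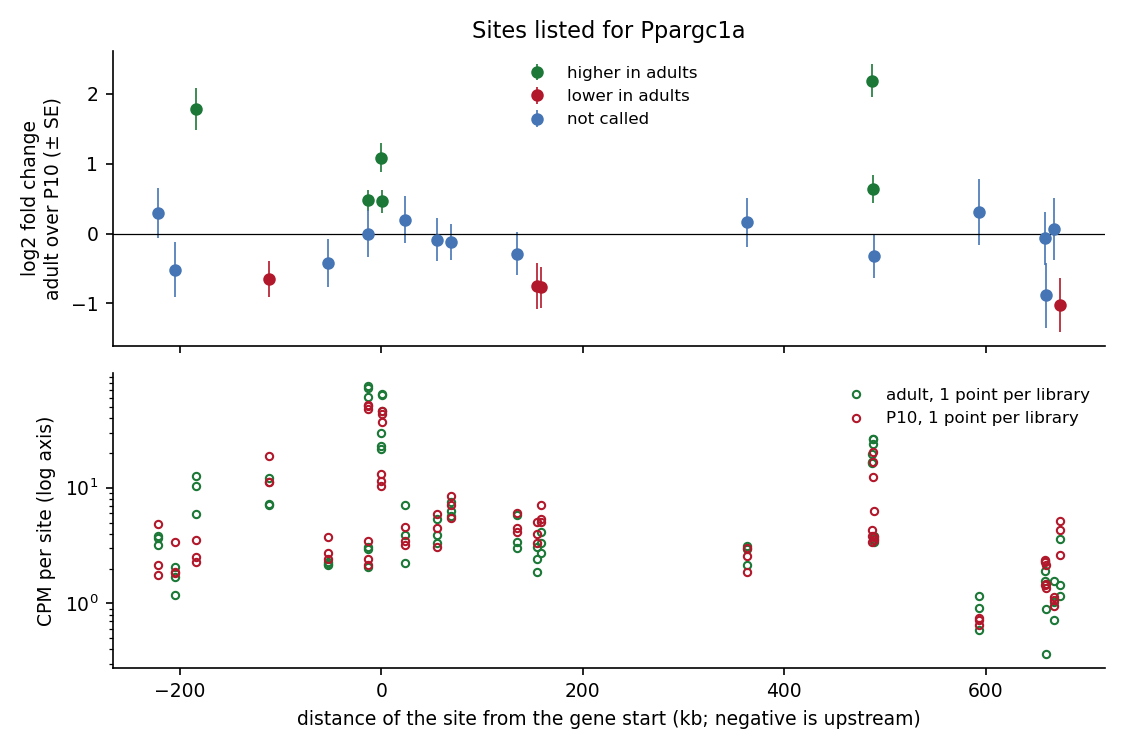
The 24 ACS of Ppargc1a by distance from the gene start in kb (negative is upstream). Above, the log2 fold change with SE (green higher, red lower in adults, blue not called), below, CPM per site on a log axis with 1 point for each of the 6 libraries, where the 3 sites near 488 kb lie on top of each other at this scale and the highest CPM values are near the start.

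*Ppargc1b*, its relative, had 5 ACS within 10000 bp of its start on chr18, 1 of them called. The ACS 588 bp upstream of the start held 40.6, 31.6 and 36.6 CPM in adults and 27.1, 26.8 and 24.8 CPM at P10, without overlap (log2 0.47, SE 0.17, adjusted p = 0.091). A further ACS 622 bp inside had a like difference of 0.50 (SE 0.23) with 12.3, 10.6 and 12.6 CPM against 8.69, 6.78 and 9.57 CPM, and missed the limits at an adjusted p of 0.21. The ACS overlapping the start between them stood at -0.14 (SE 0.24). Both outer ACS thus had higher adult libraries, and the middle ACS overlapped. The call at -588 bp was lost without Adult replicate 4, P10 replicate 2 or P10 replicate 3, with log2 fold changes from 0.37 to 0.56.

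*Esrra* and *Nrf1* encode the factors the coactivators act with. *Esrra* had a single ACS, at its start, with 32.4, 25.7 and 22.4 CPM in adults and 32.4, 32.5 and 30.9 CPM at P10, a difference that was not called (log2 -0.25, SE 0.18, adjusted p = 0.48). At *Nrf1*, the start site stood at -0.15 (SE 0.17) and 2 of 6 sites, both inside the gene, were called higher in adults. The ACS 33 kb into the gene held 11.4, 6.52 and 4.38 CPM in adults and 3.81, 3.00 and 3.96 CPM at P10 (log2 1.06, SE 0.31, adjusted p = 0.028). Its lowest adult library lay just above the highest P10 library, and without Adult replicate 4 the call was lost, with a log2 fold change of 0.61. The other, 59 kb in (log2 0.54, SE 0.25, adjusted p = 0.20), overlapped between the groups, was lost without Adult replicate 4, Adult replicate 6, P10 replicate 2 or P10 replicate 3 (0.25 to 0.87), and was not called by DESeq2 (adjusted p = 0.28).

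*Tfam*, the mitochondrial DNA packaging factor, gave the clearest split between its start and a distal site. The start site held 26.3, 23.7 and 23.8 CPM in adults and 26.1, 24.6 and 22.6 CPM at P10, a log2 fold change of 0.01 (SE 0.18) whose sign changed with the scaling. An ACS 44 kb downstream (chr20:20804444-20804829), 32143 bp beyond the end of the gene, held 241, 221 and 154 integrations in adults and 151, 86 and 90 at P10. Its CPM values were 21.8, 21.5 and 19.9 in adults and 7.02, 6.13 and 4.76 at P10, a 3.52-fold difference (log2 1.82, SE 0.22, adjusted p = 4.29e-06). Groups were far apart there, and the within-gene difference was 1.34 (SE 0.24). At the start the within-gene difference was -0.47 (SE 0.21), which also passed the limits, so the start site moved less than the gene's sites as a whole. The next named gene beyond is *Bicc1*, 135069 bp from the ACS.

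The remaining *Tfam* sites lay between these values. The ACS 9485 bp upstream was higher in adults (16.7, 11.4 and 12.8 CPM against 10.3, 7.70 and 8.04 CPM, log2 0.65, SE 0.23, adjusted p = 0.080), a call that was lost without Adult replicate 4, P10 replicate 2 or P10 replicate 3 (log2 0.47 to 0.78). The ACS with the most counts, 18 kb downstream, stood at 0.33 (SE 0.21) and that at 20 kb at 0.40 (SE 0.24), neither called.

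*Mcu*, the pore of the calcium uniporter, had 3 of 5 sites higher in adults and none at its start. The start site held 41.3, 47.4 and 34.7 CPM in adults and 43.9, 41.7 and 39.1 CPM at P10 (log2 -0.01, SE 0.17). An ACS 79 kb into the gene (chr20:30924952-30925397) held 21.2, 12.7 and 17.3 CPM against 11.6, 5.85 and 6.29 CPM, a 2.14-fold difference (log2 1.10, SE 0.26, adjusted p = 0.0062), and it exceeded the gene's sum by 0.75 (SE 0.25). All adult libraries lay above those at P10, also at the ACS 4286 bp upstream, with 10.5, 8.96 and 9.02 CPM against 6.69, 4.49 and 4.28 CPM (log2 0.87, SE 0.26, adjusted p = 0.030). The last call, 36 kb into the gene, had a log2 fold change of 0.55 (SE 0.21, adjusted p = 0.11) that was lost without Adult replicate 4, Adult replicate 6, P10 replicate 2 or P10 replicate 3 (0.42 to 0.72).

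**Figure D3:**
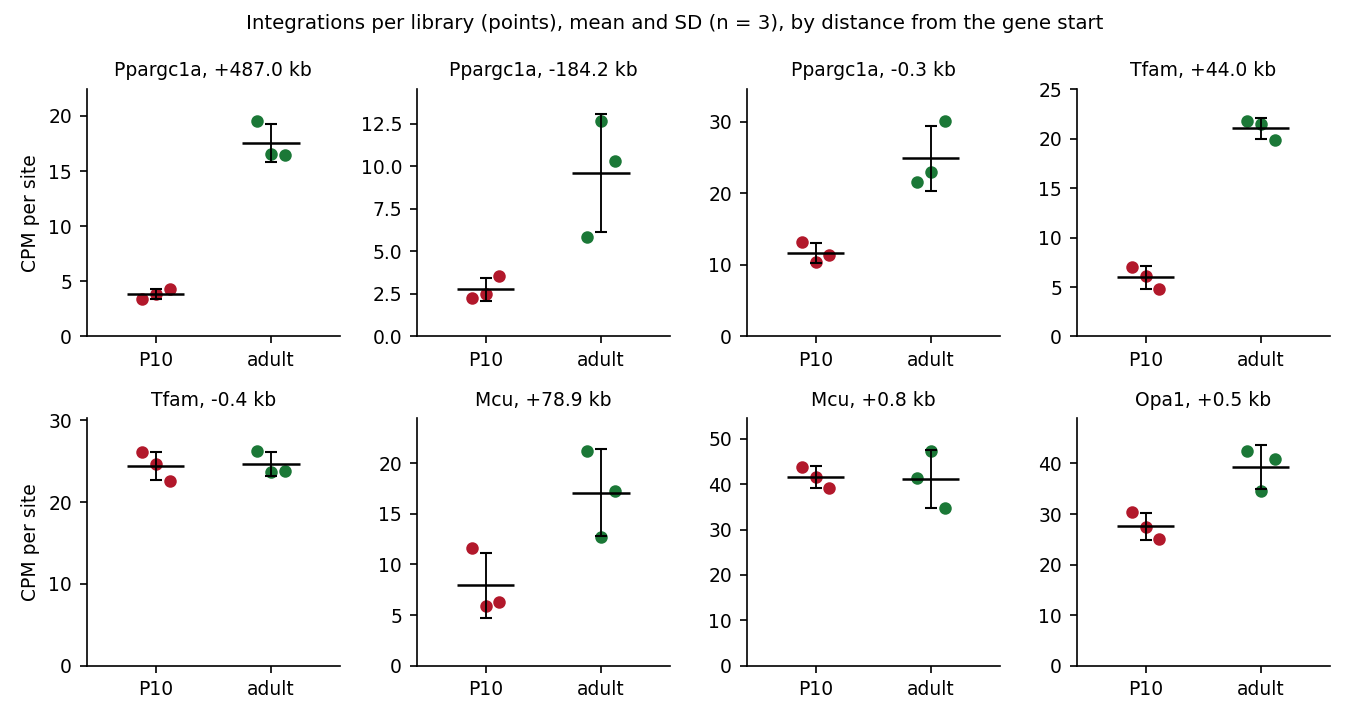
CPM per library (points), mean (line) and SD (error bar, n = 3) at 8 ACS named by gene and distance from the gene start. Adult and P10 points are apart at the distal sites of Ppargc1a, Tfam and Mcu and at the starts of Ppargc1a and Opa1, and overlap at the starts of Tfam and Mcu.

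Of the fusion genes, *Mfn1* had 2 ACS, 2679 bp and 7691 bp upstream, and none in the TSS class. The nearer held 65.6, 42.4 and 51.9 CPM in adults and 60.0, 50.9 and 54.9 CPM at P10 (log2 -0.05, SE 0.17), and the farther stood at -0.07 (SE 0.24). With TMM factors neither *Mfn1* nor *Esrra* had a call by edgeR or limma, nor in DESeq2 with its own factors, and 0 of their 3 sites had an unadjusted p < 0.05 in these fits to all 6 libraries. With cyclic loess the *Esrra* start site was called lower (log2 -0.35, adjusted p = 0.18), and with total reads all 3 sites were.

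*Opa1* had 13 ACS, 1 at the start, 2 inside and 10 downstream of the gene, and 3 were higher in adults. The start site held 42.6, 34.5 and 40.9 CPM in adults and 30.3, 27.5 and 25.005 CPM at P10 and did not overlap (log2 0.51, SE 0.17, adjusted p = 0.058). Leaving out P10 replicate 2 or P10 replicate 3 lost that call, with log2 fold changes over the fits from 0.43 to 0.60. Just past the end of the gene, 77 kb from its start, a smaller ACS rose 2.09-fold (5.69, 4.97 and 3.87 CPM against 1.72, 2.21 and 3.07 CPM, log2 1.06, SE 0.32, adjusted p = 0.035). The *Opa1* ACS with the most counts lay 167 kb from the start, with 53.7, 35.7 and 46.1 CPM in adults and 38.3, 26.5 and 24.6 CPM at P10, and was called although the groups overlapped (log2 0.60, SE 0.19, adjusted p = 0.044). Without Adult replicate 4, P10 replicate 2 or P10 replicate 3 it was not called (0.45 to 0.81). The other 10 ran from -0.59 to 0.49. This stretch lies between *Opa1* and *Hes1*, 311149 bp from the ACS at 167 kb.

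*Mfn2* was sought by its gene ID, after the values were seen, since its symbol was missing. Of all ACS, 4 carry the gene ID that the RefSeq table gives to *Mfn2*, under the symbol LOC100911485 on chr5. These were not counted above. The ACS 2853 bp upstream held 8.22, 10.3 and 8.25 CPM in adults and 4.60, 3.57 and 4.92 CPM at P10, without overlap (log2 1.03, SE 0.26, adjusted p = 0.010), and was called in each fit that left out a library. The start site was also higher (log2 0.77, SE 0.27, adjusted p = 0.079), a call lost without Adult replicate 4, P10 replicate 2 or P10 replicate 3 (0.49 to 0.96), and those 1030 bp upstream and 2837 bp inside stood at -0.06 (SE 0.21) and 0.39 (SE 0.30). With these 4 included, 23 sites were called, 19 of them higher.

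By class, 4 of the 10 TSS-class sites were higher in adults and 0 lower, where 2.73% of all TSS-class ACS were higher and 7.87% lower. With all 6 libraries and TMM factors, no TSS-class member site had an unadjusted p < 0.05 for lower in edgeR, nor a lower call in DESeq2 or limma. The *Esrra* start site did pass that limit in edgeR with column sums (unadjusted p = 0.045) and without Adult replicate 4 (unadjusted p = 0.042). Cyclic loess called it lower. Their median log2 fold change was 0.24, against -0.10 over all TSS-class ACS. The 4 lie at *Ppargc1a*, which has 2, *Ppargc1b* and *Opa1*. Of 6 proximal sites 2 were higher and 0 lower by edgeR, DESeq2 and limma, and 0 lower at an unadjusted p < 0.05 (11.2% and 6.71% of all proximal ACS were higher and lower). Of 45 distal sites 15 were called, 11 higher and 4 lower, where 20.2% of all distal ACS were called, 13.8% higher and 6.45% lower. The number of higher TSS-class calls was 1 without P10 replicate 2, 2 without P10 replicate 3 and 2 without Adult replicate 4, and with total reads 0 were higher and 5 lower.

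To give a value per library, CPM were summed over the TSS-class sites of each gene and over its distal sites. At the TSS class, adult libraries lay above P10 libraries for *Ppargc1a* (83.0 ± 12.8 against 53.8 ± 5.57, mean ± SD, n = 3), *Ppargc1b* (57.2 ± 7.21 against 44.7 ± 2.26) and *Opa1* (39.3 ± 4.26 against 27.6 ± 2.65), and overlapped for *Esrra*, *Nrf1*, *Tfam* and *Mcu*. Distal sums were higher without overlap for *Ppargc1a* (180 ± 12.1 against 145 ± 18.2), *Tfam* (69.7 ± 7.69 against 44.3 ± 12.01), *Mcu* (39.5 ± 8.76 against 24.1 ± 4.21) and *Opa1* (97.8 ± 10.1 against 76.0 ± 10.1) and overlapped for *Nrf1*. Each of these 7 sums gave p = 0.1 in a two-sided exact permutation test, the smallest that 3 against 3 libraries allow, and an adjusted p of 0.17 over the 12 sums. Among single ACS, adult libraries lay above all P10 libraries at 13.8% of all ACS and below them at 10.9%. The share over such sums of all genes is not given here, so these sums are a description of the members.

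Per kb of ACS, the promoter site with the most counts ran in adults from 28.5 CPM per kb at *Tfam* to 96.9 at *Mfn1*, whose value is from the site outside the TSS class. The adult order was *Mfn1*, *Ppargc1b* (64.0), *Opa1* (45.0), *Esrra* (42.1), *Ppargc1a* (41.9), *Mcu* (35.9), *Nrf1* (28.7) and *Tfam*. From *Opa1* downwards each gene overlapped in its libraries with its neighbour in this order. At P10 the order was *Mfn1* (100.4), *Esrra* (50.1), *Ppargc1b* (46.4), *Mcu* (36.2), *Nrf1* (31.9), *Opa1* (31.6), *Ppargc1a* (30.4) and *Tfam* (28.3), with overlaps between neighbours from *Mcu* downwards. *Opa1* went from place 6 to 3 and *Ppargc1a* from place 7 to 5. The *Ppargc1a* value is from the ACS 635 bp inside the gene, and its place depends on that choice. The ACS overlapping its start held 58.0 CPM per kb in adults and 27.2 at P10.

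**Figure D4:**
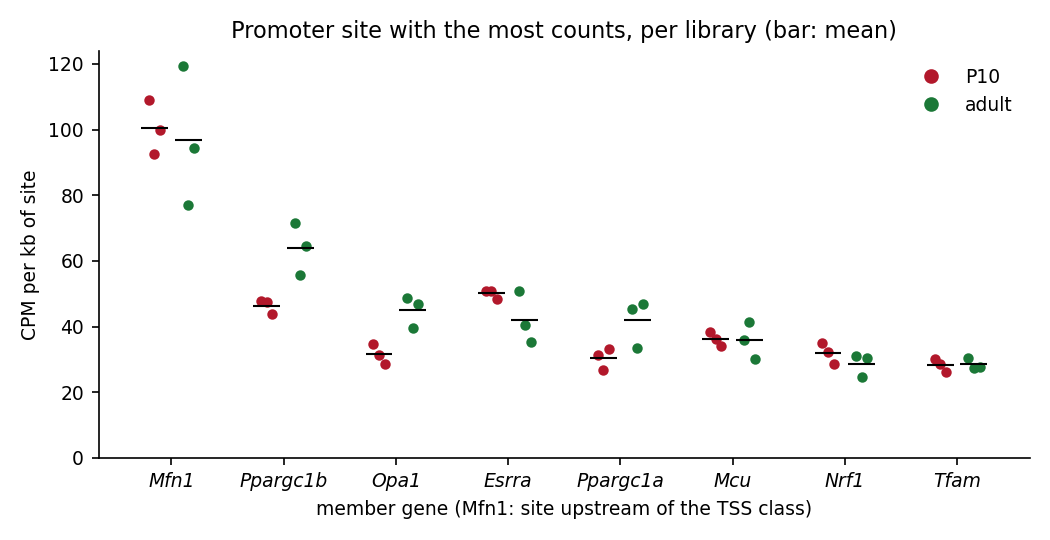
CPM per kb of the promoter ACS with the most counts of each gene, 1 point per library and a bar at the mean, ordered by the adult mean. Adult points lie above P10 points at Ppargc1b, Opa1 and Ppargc1a.

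Summed over all its sites, a gene was tested in the same way over 13834 genes, of which 10.5% were higher and 7.67% lower in adults. Of the 8 genes, 5 were called higher, *Tfam* (log2 0.48, SE 0.12, adjusted p = 0.030), *Opa1* (0.40, SE 0.11, adjusted p = 0.048), *Mcu* (0.34, SE 0.11, adjusted p = 0.076), *Ppargc1a* (0.40, SE 0.13, adjusted p = 0.083) and *Ppargc1b* (0.33, SE 0.12, adjusted p = 0.11). In CPM, *Ppargc1a* stood at 264, 237 and 286 in adults and 186, 187 and 222 at P10, and *Tfam* at 120, 96.8 and 107 against 94.5, 70.5 and 67.2. All 5 genes had adult libraries above the P10 libraries, and the share of all genes that did is not given here. *Nrf1* (0.06, SE 0.12), *Mfn1* (-0.06, SE 0.11) and *Esrra* (-0.26, SE 0.15) were not called, and no gene was lower, also not at an unadjusted p < 0.05 or in DESeq2 and limma. Dividing by the sums of the counts made *Esrra* lower (log2 -0.34, adjusted p = 0.19), and dividing by total reads made 5 genes lower and 0 higher. Without P10 replicate 2 the number called was 0, and without Adult replicate 4 or Adult replicate 6 it was 3. Over all genes, 1451 were higher and 1061 lower with all libraries. Without P10 replicate 2 these were 428 and 212, without Adult replicate 4 768 and 553, and without Adult replicate 6 812 and 439.

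**Figure D5:**
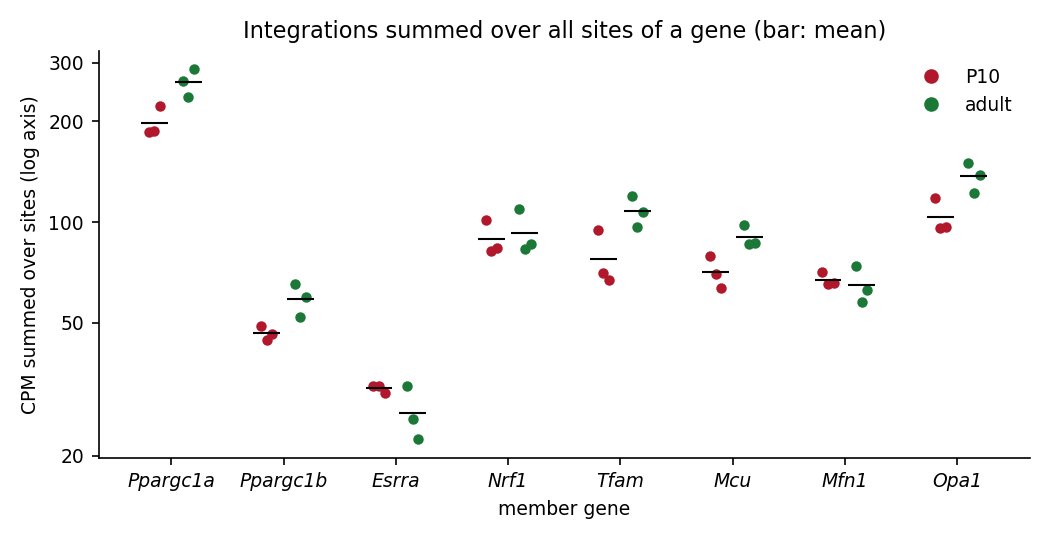
CPM summed over all ACS of a gene on a log axis, 1 point per library with a bar at the mean. Adult points lie above P10 points at Ppargc1a, Ppargc1b, Tfam, Mcu and Opa1 and overlap at Esrra, Nrf1 and Mfn1.

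In bulk islets, more cells of a type and more open chromatin per cell cannot be told apart. Among marker lists, summed CPM of the 4 endothelial genes was 367 to 448 in adults against 330 to 341 at P10, with 9 of 51 sites higher and 1 lower, that of 5 alpha-cell genes was 804 to 918 against 700 to 775, with 21 of 111 higher and 6 lower, and those of duct genes (241 to 280 against 205 to 225, 4 of 37 sites higher and 4 lower) and mesenchyme genes (286 to 301 against 260 to 281, 3 of 38 higher and 4 lower) did not overlap either. The start sites of the duct genes *Sox9* (log2 -0.74) and *Cftr* (-0.73) were lower in adults. Summed CPM of β-cell genes (834 to 934 against 795 to 1054, 14 of 86 higher and 11 lower) and acinar genes (330 to 367 against 327 to 331, 3 of 54 higher and 6 lower) overlapped. So did the sums of the delta, pan-endocrine, immune and cycling lists. Of all ACS, 12.3% were higher and 6.63% lower. The duct, mesenchyme and acinar lists lie under that share of higher sites, and the endothelial, alpha-cell and β-cell lists above it. At 24.7% of single ACS the groups did not overlap, but the share for sums over lists of genes is not given here. The part of these cells in the changes above was not tested. Accessible start sites were found at the islet genes *Ins1* (mean 88.1 CPM in adults and 148 at P10), *Nkx6-1* (36.5 and 36.3) and *Neurod1* (33.0 and 36.2), and at lower levels at *Pdx1* (8.80 and 9.95), *Ucn3* (17.9 and 12.2) and *Ins2* (5.24 and 11.4). Of these, *Ins1* (log2 -0.75) and *Ins2* (-1.12) were lower in adults and *Ucn3* (0.55) higher. The start site of the acinar gene *Amy2a3* was at 0.970 and 3.02 CPM and lower in adults (-1.66). No sites of the β-cell markers *Mafa* and *G6pc2* were found by symbol or gene ID.

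Other genes of mitochondrial biogenesis and dynamics were read from a list of 58 symbols, 49 of them with ACS. Of their 269 sites 36 were higher (13.4%) and 17 lower (6.32%), near the 12.3% and 6.63% of all ACS, and the median log2 fold change was 0.01. Of 52 TSS-class sites, where 2.73% of all TSS-class ACS were higher and 7.87% lower, 1 was higher, at *Gdap1* (log2 0.59, SE 0.18), an outer membrane protein of mitochondrial fission, and 2 were lower, at *Gabpb1* (-0.78, SE 0.25), a subunit of the GABP factor, and *Sqstm1* (-0.76, SE 0.21), the autophagy receptor p62. The call at *Gdap1* was lost without Adult replicate 4 (log2 0.43) and that at *Gabpb1* without Adult replicate 6 (-0.62). The fission genes had 4 of 17 sites higher, the nuclear receptors and factors 8 and 3 of 53, the genes for mitochondrial DNA upkeep and transcription 2 and 4 of 31, inner membrane proteases and cristae genes 9 and 3 of 68, calcium uniporter partners and calcium exchangers 6 and 4 of 47 and mitophagy genes 7 and 3 of 53.

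Strong changes in this list also lay inside or beyond genes. *Micu2*, which gates the uniporter, had a site 46 kb into the gene at 11.1 ± 0.874 CPM in adults and 3.21 ± 0.673 at P10 (log2 1.80, SE 0.26, adjusted p = 4.11e-05). *Park2*, the ubiquitin ligase of mitophagy, had a site 611 kb in (1.32, SE 0.28) and *Afg3l2*, a protease of the inner membrane, a site 1865 bp in (0.92, SE 0.20). *Fundc1*, a mitophagy receptor, had a site 61 kb downstream that was lower, at 13.6 ± 1.297 CPM against 26.2 ± 3.90 (log2 -0.95, SE 0.20, adjusted p = 0.0020). At each of these 4 sites the groups did not overlap and the call held without any of the 6 libraries in turn.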

How the data were processed

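ATAC-seq of dissociated islet cells was available as 3 adult and 3 P10 libraries. Per the labels and the study's methods, the authors aligned reads to Rn5 with BWA 0.7.13, kept reads of mapping quality 30 or more, called peaks with MACS2 2.1.1 on pooled libraries of each age, and deposited, for each library, the count of Tn5 integrations in every ACS as whole numbers. Duplicate removal is not given in the sources used here. Their own log fold changes, p-values and FDR were not used. Nearest gene, distance and class are theirs. Of 101941 entries, 338 repeat an ACS and were dropped. Counts were tested in edgeR 4.0.16 (TMM, quasi-likelihood, no filter, R 4.3.3), per ACS, per gene sum and, with diffSpliceDGE, per ACS against its gene's sum, and checked on simulated data. Sites with a called change, the most counts, the smallest p or the largest change of each gene, and its start site, were named. Of the other genes these rules name, 2 are not reported here. Alternatives were DESeq2 1.42.0, limma 3.58.1, other scalings, filters and leaving out a library. The members and lists were chosen with earlier results of these data known. Replicates are separate rats or pools of pups, and p-values cover the spread between them. Motif letters were searched in RefSeq windows.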

Additional observations from a re-analysis of the deposited data

How the results depend on the processing

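No paired analysis was possible because, by the study's methods, the adult libraries came from separate male rats and the P10 libraries from pups of different litters. No link between an adult and a litter is given. Numbers of sites called ranged from 11 to 22 when 1 library was left out (higher 10 to 18, lower 0 to 4), of genes on summed sites from 0 to 5 (higher 0 to 5), of sites against their gene from 8 to 19 (lower 4 to 12) and of the wider list from 32 to 54 (higher 22 to 39, lower 10 to 19). Over all ACS these fits gave 7973 to 13232 higher and 3285 to 7215 lower, and over all genes 428 to 1742 higher and 212 to 1362 lower. With an adjusted p < 0.05 alone these were 11 sites (11 higher, 0 lower), 2 genes (2 higher), 9 sites against their gene (4 lower) and 28 of the wider list (21 higher, 7 lower). Column sums gave 1 gene lower (*Esrra*), a member median of -0.019, *Nrf1* summed at -0.033 and the *Tfam* TSS sum at -0.085. Total reads gave 34 sites called (3 higher, 31 lower) and 0 genes higher and 5 lower, with medians of -0.76 over sites and -0.50 over genes. There, the sites reversed were *Mcu* at 36 kb (-0.30), *Nrf1* at 59 kb (-0.35), *Opa1* at 167 kb (-0.28) and its start (-0.35), *Ppargc1a* at -13 kb (-0.37), 635 bp (-0.39) and 488 kb (-0.16), *Ppargc1b* at 622 bp (-0.34) and -588 bp (-0.38), and *Tfam* at -9485 bp (-0.21), its start (-0.84) and 18 kb (-0.57). So did the sums of *Ppargc1a* (-0.43), *Ppargc1b* (-0.50), *Nrf1* (-0.79), *Tfam* (-0.39), *Mcu* (-0.50) and *Opa1* (-0.455). The *Tfam* start, near 0, was -0.0023 in DESeq2, -0.0025 with median-of-ratios factors, -0.085 with column sums and -0.086 with cyclic loess, and -0.056 to 0.049 with 1 library left out. Among the sites named by the rules above, others that changed sign when 1 library was left out were *Mfn1* at -7691 bp (-0.34 to 0.11) and -2679 bp (-0.23 to 0.091) and the *Mcu* start (-0.13 to 0.094). Among the gene sums *Nrf1* did (-0.028 to 0.12). The list is not complete for sites outside these rules. Further sites of *Mcu*, *Nrf1*, *Opa1* and *Ppargc1a* and a site with the gene ID of *Mfn2* also changed sign. The small *Ppargc1a* ACS near -13 kb was among them (-0.15 to 0.22). The cause was not tested.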

Other observations

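The member gene with the smallest p on summed sites was *Tfam*, and its log2 CPM over the 6 libraries had among its closest likes those of *Perp* (Pearson r 0.998, log2 fold change 0.37) and *Cfap20* (0.997, 0.26) among 13181 genes. Among the members, r with *Tfam* was 0.99 for *Opa1*, 0.98 for *Mcu*, 0.92 for *Ppargc1b*, 0.66 for *Nrf1*, 0.64 for *Ppargc1a*, 0.22 for *Mfn1* and -0.35 for *Esrra*. These are descriptions over 6 libraries that fall into both age groups and share their scaling, so any gene with a like age difference has a high r.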
